A study of Mus musculus with 8 samples.

Results

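The cytochrome P450 enzymes of families 1 to 3 were examined in mouse liver as a group of 58 protein-coding genes. Members were the rows of the deposited count table whose Ensembl identifier has a symbol of the form Cyp, a family number of 1, 2 or 3, a subfamily letter and a gene number in the GENCODE M21 annotation of GRCm38. They are 58 of the 45706 rows and fall into 16 subfamilies. Liver RNA came from 8 male mice labelled with the strain C56B6/J (C57BL/6J in the methods), 4 labelled *Srsf10-kd* (genotype Srsf10KD) and 4 labelled *Ctrl* (genotype WT). At 6 weeks of age all 8 mice received an AAV2/8 whose chicken β-actin (CBA) promoter drives GFP and a mirE/shRNA, directed to *Srsf10* in the *Srsf10-kd* group and a control sequence in the *Ctrl* group. From 4 weeks later all of them ate a high-fat diet (HFD), with 60% of calories from fat, for 12 weeks. The CBA promoter is not specific to hepatocytes, and RNA was taken from whole liver.

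Cytochrome P450 enzymes are heme proteins of the endoplasmic reticulum that insert an oxygen atom into their substrates, with electrons passed on by the reductase encoded by *Por* and by cytochrome b5. Families 1 to 3 oxidise drugs, dietary and environmental chemicals, and also steroids, bile acids and fatty acids. In the liver they are mainly a hepatocyte product, and many are placed near the central vein. Several in the mouse differ between the sexes under growth hormone. Receptors that bind foreign compounds switch many of them on. AhR (*Ahr*) induces *Cyp1a1*, *Cyp1a2* and *Cyp1b1*, CAR (*Nr1i3*) induces *Cyp2b10*, and PXR (*Nr1i2*) induces *Cyp3a11*.

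Upstream sequences are shown first for the AhR target members, which hold both members whose groups did not overlap, and then for a pair of neighbouring genes that were high together in a single liver. They come from RefSeq on GRCm38.p6, where 50 of the 58 members had an entry, and each holds the 250 bases before the annotated start, written 5′ to 3′ on the strand of the gene. Capitals mark GCGTG, the core bases that AhR and its partner ARNT bind, or CACGC, the same core on the other strand. The windows are chr9:57697363-57697612 on the plus strand for *Cyp1a1*, chr17:79715062-79715311 on the minus strand for *Cyp1b1* and chr9:57683656-57683905 on the minus strand for *Cyp1a2*. The RefSeq start of *Cyp1a1* lies within the longer gene model of GENCODE.
Cyp1a1: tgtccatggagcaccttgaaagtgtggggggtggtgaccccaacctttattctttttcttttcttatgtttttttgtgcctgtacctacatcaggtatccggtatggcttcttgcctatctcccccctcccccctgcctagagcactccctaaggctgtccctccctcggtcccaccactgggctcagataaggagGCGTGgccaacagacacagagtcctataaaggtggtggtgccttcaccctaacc
Cyp1b1: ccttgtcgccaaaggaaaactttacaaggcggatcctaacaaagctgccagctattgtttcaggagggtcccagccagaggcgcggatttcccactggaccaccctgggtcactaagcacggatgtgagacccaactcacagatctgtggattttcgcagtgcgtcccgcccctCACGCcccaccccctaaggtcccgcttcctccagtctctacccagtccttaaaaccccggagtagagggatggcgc
Cyp1a2: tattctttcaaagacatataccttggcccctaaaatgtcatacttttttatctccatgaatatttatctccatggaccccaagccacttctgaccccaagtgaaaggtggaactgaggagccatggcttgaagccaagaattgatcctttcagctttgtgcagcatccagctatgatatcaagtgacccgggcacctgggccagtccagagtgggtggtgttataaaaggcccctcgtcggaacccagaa
*Cyp1a1* held 1 core, 54 bases before its start, and *Cyp1b1* held 1, on the other strand, 76 bases before its start, while *Cyp1a2* held 0 in this window. The core is short and common. It lies upstream of 8338 of the 27025 genes with a RefSeq entry (30.9%) and of 8 of the 50 members with one (16.0%), and the match is a description of the letters only.

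*Cyp2b9* and *Cyp2b13*, genes known to be more active in female than in male mouse liver, lie close to each other on chromosome 7. Their upstream windows, chr7:26173159-26173408 and chr7:26061245-26061494 on the plus strand, were 99.2% identical, and capitals mark the 2 bases that differ (T48C and C104T, with *Cyp2b9* first and positions counted from 1 at the 5′ end of the window).
Cyp2b9: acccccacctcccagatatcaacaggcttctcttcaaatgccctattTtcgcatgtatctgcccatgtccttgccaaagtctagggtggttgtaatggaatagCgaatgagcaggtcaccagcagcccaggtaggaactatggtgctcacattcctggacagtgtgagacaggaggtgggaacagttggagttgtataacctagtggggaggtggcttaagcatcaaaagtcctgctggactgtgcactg
Cyp2b13: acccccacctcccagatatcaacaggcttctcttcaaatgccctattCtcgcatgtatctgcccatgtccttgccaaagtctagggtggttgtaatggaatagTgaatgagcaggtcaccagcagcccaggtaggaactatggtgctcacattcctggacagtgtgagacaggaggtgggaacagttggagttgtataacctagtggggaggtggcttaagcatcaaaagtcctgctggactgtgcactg
The same stretch of *Cyp2b10*, in the same cluster, was 70.8% identical to that of *Cyp2b9*. Across the *Cyp2a* cluster, the windows of *Cyp2a4* and *Cyp2a5* were 98.0% identical and those of *Cyp2a12* and *Cyp2a22* 86.4% identical.

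Sequencing gave between 50456404 and 59697241 reads counted on genes per liver. Levels are CPM, the counts of a gene after TMM scaling of each library to a common size. After edgeR had dropped rows with few counts, 15491 genes entered its quasi-likelihood test (two-sided), their p-values were adjusted together after Benjamini and Hochberg, and fold changes are *Srsf10-kd* over *Ctrl* on the log2 scale. No label says whether same-numbered livers were paired or whether livers of a group shared a cage, so the p-values measure the spread among these livers. *Srsf10* itself was at 34.3, 34.0, 41.0 and 36.5 CPM in *Srsf10-kd* 1 to 4 and at 31.6, 33.7, 35.3 and 30.9 CPM in *Ctrl* 1 to 4. The livers labelled *Srsf10-kd* thus had no lower *Srsf10* RNA in these counts (log2 fold change 0.15, standard error 0.10, edgeR adjusted p = 0.378), and groups are named by their labels alone. The study reports lower SRSF10 protein by western blot and lower *Srsf10* RNA by quantitative PCR in livers given this vector. Those measures are not part of the counts examined here. The 8 hepatocyte markers, among them *Alb* and *Ttr*, were detected in every liver, with a summed level of 80928 to 109086 CPM in *Ctrl* and 98379 to 116419 CPM in *Srsf10-kd*. *Alb* made up most of that sum, with means of 62974 and 73274 CPM. Within the same list *Apob* was lower in every *Srsf10-kd* liver than in any *Ctrl* liver (log2 fold change -0.93, edgeR adjusted p = 0.115, DESeq2 0.00293, limma-voom 0.00953), and the transferrin gene *Trf* was higher in every one (1.07, edgeR adjusted p = 0.133, DESeq2 0.0206, limma-voom 0.0400). Libraries also differed in how levels followed transcript length, with slopes per doubling of length from -0.030 to 0.13 in *Ctrl* and from -0.18 to -0.024 in *Srsf10-kd*. In bulk liver RNA, fewer cells of a type and less RNA per cell cannot be told apart.

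Of the 58 members, 44 passed the filter and were tested, and 36 of these had a mean of at least 1 CPM. Counts were 0 in every liver for *Cyp2b23*, *Cyp2j7*, *Cyp2j12*, *Cyp2j13* and *Cyp2w1*, which allows a level of up to 0.049 to 0.060 CPM per liver (3 counts, counting error only). The 9 others that failed the filter, *Cyp2b19*, *Cyp2c66*, *Cyp2d34*, *Cyp2j8*, *Cyp2j11*, *Cyp2t4*, *Cyp3a16*, *Cyp3a44* and *Cyp3a57*, had at most 21 counts in any liver. Together the members took 1.82% to 2.31% of the counts of a liver. *Cyp2e1*, which oxidises ethanol and acetone, supplied 42.5% to 54.1% of that share. The summed level of the members was 21370 ± 1563 CPM (SD, n = 4) in *Ctrl* and 20905 ± 2382 CPM (SD, n = 4) in *Srsf10-kd*, a difference smaller than the SD of either group.

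Levels per kb of annotated exon spanned more than 3 powers of 10 (see the plot of levels in the 8 livers). *Cyp2e1* led with a mean of 4765 CPM per kb, and its lowest liver (4278 CPM per kb) lay far above the highest of the next gene, *Cyp2d9* (740 CPM per kb). Means per kb were 593 for *Cyp2d9*, a testosterone 16α-hydroxylase known as a male-predominant gene, 541 for *Cyp2d26*, 486 for *Cyp2f2*, the naphthalene-oxidising enzyme of periportal hepatocytes, and 459 for *Cyp2d10*. The ranges of these 4 overlapped across livers, although *Cyp2d26* lay above *Cyp2f2* in each of the 8 livers. *Cyp2j5*, an arachidonic acid epoxygenase, followed with 259 CPM per kb, and its highest liver (299 CPM per kb) lay below the lowest of *Cyp2d10* (404 CPM per kb). Among the 35 neighbouring pairs in the order of the 36 members, 33 had overlapping ranges and 2 did not (*Cyp2e1* above *Cyp2d9*, and *Cyp2d10* above *Cyp2j5*). *Cyp1b1* was the lowest of the 36, with 1.25 CPM per kb. Dividing by the longest transcript in place of the exon union kept 5 of the 6 highest members, with *Cyp3a11* in place of *Cyp2j5*. It put the mean of *Cyp2d9* at 920 CPM per kb, and the overlaps and gaps above are given for the exon union only.

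**Figure D1:**
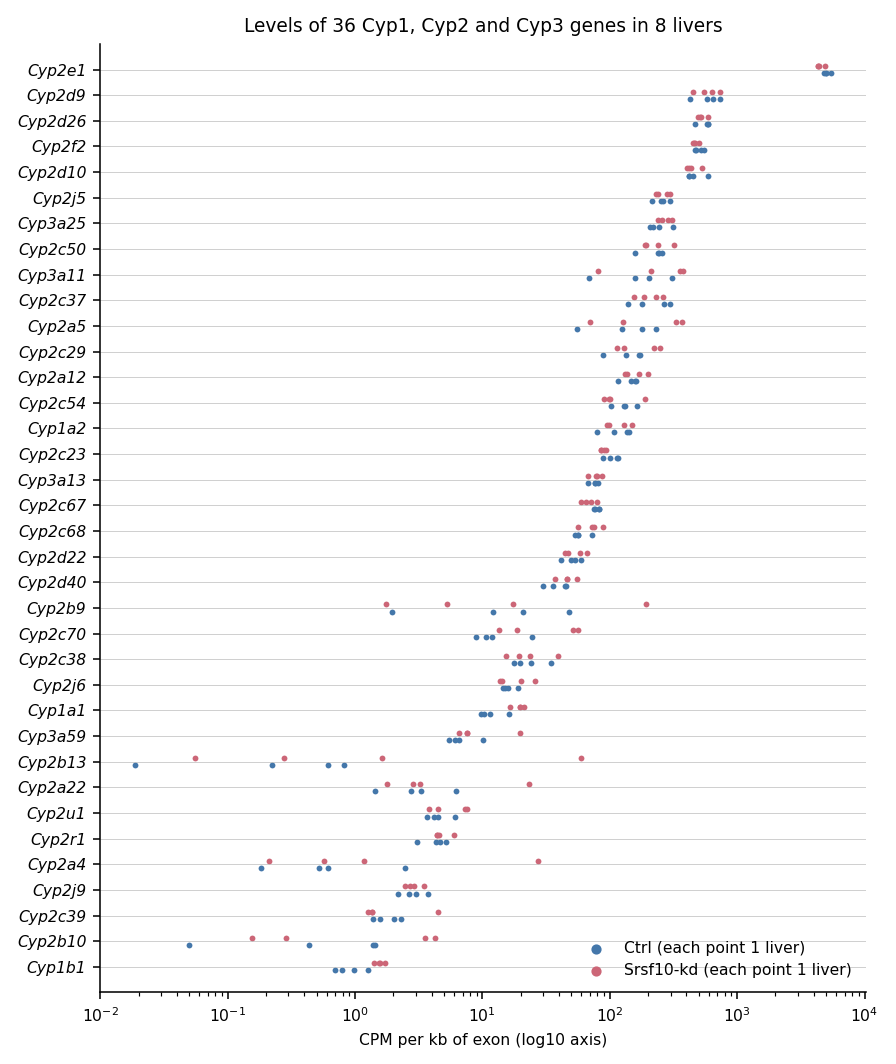
Level of each of the 36 members with a mean of at least 1 CPM, in CPM per kb of exon on a log10 axis, with 1 point per liver (blue *Ctrl*, red *Srsf10-kd*), ordered by mean. *Cyp2e1* stands alone at the top, most members hold a narrow band in which both groups mix, and *Cyp2b13*, *Cyp2a4*, *Cyp2b9* and *Cyp2b10* spread over more than a power of 10, as does *Cyp2a22*.

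No member passed an adjusted p of 0.05 with edgeR, against 11 of all 15491 genes (0.071%). At an unadjusted p under 0.05, 5 members were higher in *Srsf10-kd* (*Cyp1a1*, *Cyp1b1*, *Cyp2b13*, *Cyp2c65* and *Cyp2c70*) and 0 were lower, where 11.2% of all genes tested were higher and 10.6% lower by the same rule. DESeq2 called 2 members (*Cyp1a1* and *Cyp1b1*), against 5.75% of the genes it adjusted. It gave no adjusted p for *Cyp2a4*, *Cyp2a22* and *Cyp2b13*, which it thus could not call. The limma-voom fit, which weights livers by quality, called 4 (also *Cyp2c65* and *Cyp2s1*), against 11.7% of all genes. These shares are near or below the background, so the counts say nothing particular about the group. Of the 44 members tested, 32 had a positive log2 fold change, with a median of 0.18 where all genes had a median of 0.01, 51.3% of them positive. That direction rested on few livers and on the tool. Without *Srsf10-kd* 2 it was 25 of 44 with a median of 0.05, and with limma-voom it was 15 of 44 with a median of -0.08.

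**Figure D2:**
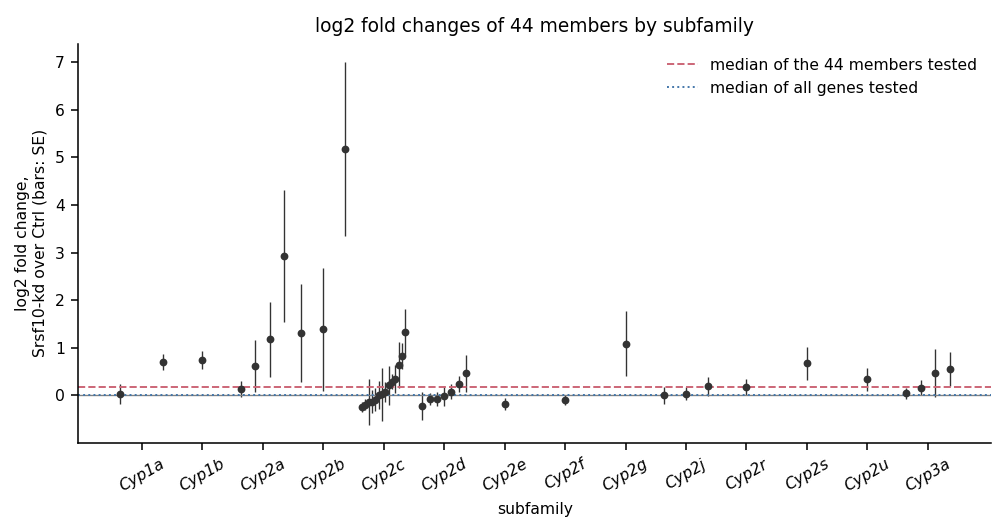
log2 fold change of the 44 members tested, *Srsf10-kd* over *Ctrl*, by subfamily, with the standard error as bars, the median of the members as a dashed line and that of all genes tested as a dotted line. *Cyp2b13* and *Cyp2a4* have the highest values with the longest bars, *Cyp1a1* and *Cyp1b1* lie at 0.69 and 0.74 with short bars, and most *Cyp2c*, *Cyp2d* and *Cyp3a* members sit around 0.

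The AhR target members were 2 higher genes and 1 level gene. *Cyp1a1* (chromosome 9, 57687928 to 57703824, plus strand), which oxidises polycyclic aromatic hydrocarbons, was at 27.0, 32.2, 45.4 and 28.9 CPM in *Ctrl* 1 to 4 and at 55.1, 46.4, 54.8 and 59.6 CPM in *Srsf10-kd* 1 to 4. Every *Srsf10-kd* liver lay above every *Ctrl* liver, by a narrow margin between *Ctrl* 3 and *Srsf10-kd* 2. The means were 33.3 ± 8.29 CPM (SD, n = 4) in *Ctrl* and 54.0 ± 5.52 CPM (SD, n = 4) in *Srsf10-kd*. Its log2 fold change was 0.69 (standard error 0.17), with an adjusted p of 0.116 from edgeR, 0.00934 from DESeq2 and 0.00727 from limma-voom, and between 0.00727 and 0.322 over all alternatives. A two-sided exact permutation test of its log2 CPM gave p = 0.0286, the smallest that 4 livers against 4 allow.

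*Cyp1b1* (chromosome 17, 79701537 to 79715061, minus strand), which oxidises estradiol and aromatic hydrocarbons and is known mostly from cells other than hepatocytes, followed the same course at a lower level. It was at 4.10, 5.74, 7.46 and 4.58 CPM in *Ctrl* 1 to 4 and at 9.19, 8.28, 9.01 and 10.1 CPM in *Srsf10-kd* 1 to 4, from 236 to 566 counts per liver. Again no liver of one group reached the other, and *Ctrl* 3 was the highest *Ctrl* liver. The log2 fold change was 0.74 (standard error 0.18), with an adjusted p of 0.116 from edgeR, 0.00953 from DESeq2 and 0.00847 from limma-voom, and between 0.00847 and 0.322 over all alternatives. The two-sided exact permutation p was 0.0286, again the smallest possible. These were the 2 members, of the 44 tested, whose groups did not overlap with *Srsf10-kd* higher, where 6.73% of all genes tested had such a pattern, and 0 members lay wholly lower, where 7.53% of all genes did.

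*Cyp1a2*, the constitutive hepatocyte enzyme that clears caffeine and aromatic amines, was not part of that difference. It was at 274, 285, 216 and 161 CPM in *Ctrl* 1 to 4 and at 191, 262, 301 and 198 CPM in *Srsf10-kd* 1 to 4. The groups covered the same range, and the log2 fold change was 0.03 (standard error 0.21, edgeR adjusted p = 0.950). *Cyp1a1* and *Cyp1a2* share 2.32% of the 75-base stretches of *Cyp1a1*, and *Cyp1b1* shares 0 with other genes, so little of these counts could be exchanged between genes.

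Removing the trend on transcript length gave log2 fold changes of 0.66 for *Cyp1a1* and 0.89 for *Cyp1b1*, with edgeR adjusted p of 0.176 and 0.173. Without *Ctrl* 3 both passed in edgeR (log2 fold changes 0.88 and 0.92, adjusted p = 0.0212 and 0.0271), the single liver whose removal gave calls of members. Some bile duct markers were also higher in the *Srsf10-kd* livers. *Krt19*, the keratin of bile duct cells, was at 5.17, 6.79, 8.79 and 5.30 CPM in *Ctrl* 1 to 4 and at 11.6, 9.49, 11.3 and 10.9 CPM in *Srsf10-kd* 1 to 4 (log2 fold change 0.73, standard error 0.18, edgeR adjusted p = 0.116). All 5 cholangiocyte markers had positive fold changes, none was at 0, and their summed level was 31.4 to 39.1 CPM in *Ctrl* and 46.5 to 68.6 CPM in *Srsf10-kd*. *Spp1* made up most of that sum, with means of 21.4 and 32.3 CPM, and its groups did not overlap. The groups of *Krt7*, *Epcam* and *Sox9* overlapped, and *Sox9* was lowest in *Srsf10-kd* 2, at 3.42 CPM. Summed endothelial markers were at 191 to 218 and 186 to 217 CPM, and stellate cell markers at 191 to 213 and 170.5 to 292 CPM. Summed macrophage and Kupffer cell markers were at 179 to 256 and 146 to 260 CPM. Of the 6 endothelial markers 3 had positive and 3 negative log2 fold changes. *Lyve1* (0.57, edgeR adjusted p = 0.139, DESeq2 0.0475, limma-voom 0.0275) was higher in every *Srsf10-kd* liver than in any *Ctrl* liver. *Pecam1* (0.30, edgeR adjusted p = 0.169, limma-voom 0.0241) and *Stab2* (-0.57, edgeR adjusted p = 0.201, limma-voom 0.0480) had overlapping groups. *Dcn* made up most of the stellate cell sum, with means of 126 and 147 CPM. The part of other cell types in the levels of *Cyp1a1* and *Cyp1b1* was not tested.

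**Figure D3:**
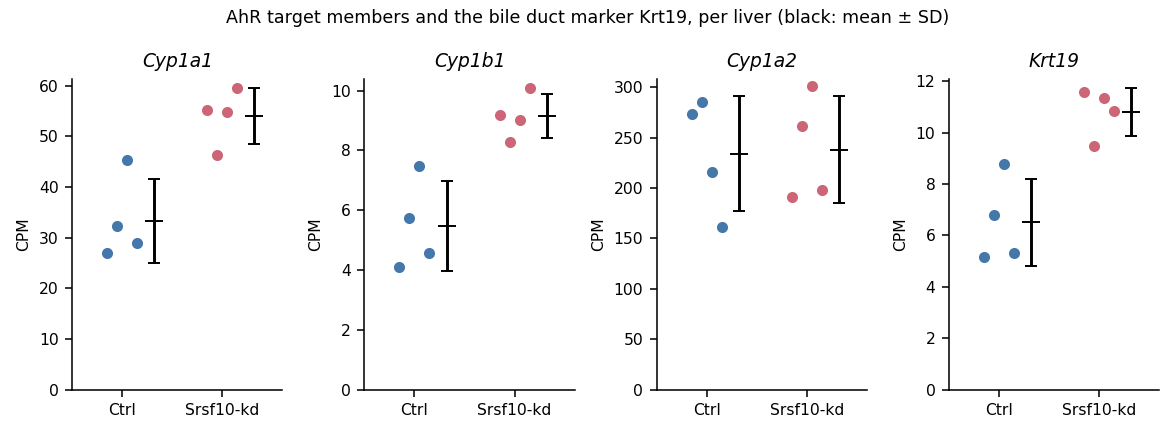
CPM of *Cyp1a1*, *Cyp1b1*, *Cyp1a2* and the bile duct marker *Krt19* in each liver (blue *Ctrl*, red *Srsf10-kd*, livers 1 to 4 from left to right), with the mean and SD in black. The *Srsf10-kd* livers of *Cyp1a1*, *Cyp1b1* and *Krt19* all lie above the *Ctrl* livers, with *Ctrl* 3 nearest to them, and the groups of *Cyp1a2* cover the same range.

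The CAR target *Cyp2b10* and the PXR target *Cyp3a11* varied more within the groups than between them. *Cyp2b10*, an enzyme that is low in untreated liver, was at 2.92, 3.03, 0.92 and 0.11 CPM in *Ctrl* 1 to 4 and at 0.33, 8.94, 7.53 and 0.61 CPM in *Srsf10-kd* 1 to 4. It was high in *Srsf10-kd* 2 and 3 and low in *Ctrl* 4 and *Srsf10-kd* 1, an 84.9-fold range. Its log2 fold change was 1.31 (standard error 1.04, edgeR adjusted p = 0.450) and turned to -0.89 with limma-voom. *Cyp2c55*, another gene induced through CAR, was between 0.35 and 2.15 CPM, highest in *Srsf10-kd* 2, and its exons overlap *Gm23800* on the other strand.

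*Cyp3a11*, the main drug-oxidising *Cyp3a* enzyme of mouse liver, was at 799.5, 1576, 1037 and 349 CPM in *Ctrl* 1 to 4 and at 416, 1907, 1082 and 1805 CPM in *Srsf10-kd* 1 to 4. Both groups held low and high livers, with the lowest again *Ctrl* 4 and *Srsf10-kd* 1. The log2 fold change was 0.47 (standard error 0.50, edgeR adjusted p = 0.577). The other *Cyp3a* genes with appreciable levels were steadier, with *Cyp3a13* at 199 to 259 CPM and *Cyp3a25* at 429 to 648 CPM in the 8 livers.

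The most abundant members differed little between the groups. *Cyp2e1* was at 10668, 10776, 11798 and 10421 CPM in *Ctrl* 1 to 4 and at 9233, 9512, 10532 and 9324 CPM in *Srsf10-kd* 1 to 4. Only *Srsf10-kd* 3 entered the *Ctrl* range, and the log2 fold change was -0.18 (standard error 0.13, edgeR adjusted p = 0.405, two-sided exact permutation p = 0.0571). *Cyp2d9* was at 1528, 1125, 1709.9 and 1966 CPM in *Ctrl* and at 1454, 1194, 1945 and 1682 CPM in *Srsf10-kd*. Both groups spanned the same levels, with the lowest in liver 2 of each group (log2 fold change -0.01, standard error 0.20). *Cyp2d26* was at 1035, 1050.2, 1050.2 and 841 CPM in *Ctrl* and at 877, 1051, 937 and 916 CPM in *Srsf10-kd*, with a log2 fold change of -0.07 (standard error 0.12). *Cyp2f2* was at 1112, 963, 1049 and 943 CPM in *Ctrl* and at 915, 1017, 943 and 934 CPM in *Srsf10-kd*, with a log2 fold change of -0.09 (standard error 0.11).

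*Cyp2d10* was at 691, 695, 967 and 743 CPM in *Ctrl* 1 to 4 and at 685, 666, 877 and 721 CPM in *Srsf10-kd* 1 to 4, highest in liver 3 of each group (log2 fold change -0.07, standard error 0.15). *Cyp2j5* was at 691, 593, 611 and 504 CPM in *Ctrl* and at 559, 658, 701 and 540.5 CPM in *Srsf10-kd* (log2 fold change 0.04, standard error 0.14). For these 6 genes the edgeR adjusted p lay between 0.405 and 0.975. Exons of *Cyp2f2* overlap *Gm15883* on the other strand. The strand column of the counts is not given, so how reads from that overlap were counted is unknown. *Cyp2d10* shares 22.3% of its 75-base stretches with *Cyp2d11* and other *Cyp2d* genes.

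By subfamily, all 4 *Cyp2a*, 3 *Cyp2b* and 4 *Cyp3a* genes tested had positive log2 fold changes, with medians of 0.90, 1.39 and 0.31. Without *Srsf10-kd* 2 the medians were -0.15, 0.61 and 0.07. Of 14 *Cyp2c* genes tested 9 were positive (median 0.05), and of 7 *Cyp2d* genes 3 were (median -0.01). The 6 pericentral members (*Cyp2e1*, *Cyp1a2*, *Cyp2a5*, *Cyp2c29*, *Cyp2c37* and *Cyp2c50*) ranged from -0.18 to 0.62, and the 5 arachidonic acid epoxygenases, which include *Cyp2c23* (*Cyp2c44* among its RefSeq synonyms), from -0.24 to 0.34. *Cyp2r1*, the vitamin D 25-hydroxylase, was between 6.53 and 12.7 CPM in the 8 livers with a log2 fold change of 0.17 (standard error 0.17).

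In the *Cyp2c* cluster, *Cyp2c70*, the enzyme that makes muricholic acids from chenodeoxycholic acid, had the highest log2 fold change. It was at 48.6, 23.6, 17.8 and 21.1 CPM in *Ctrl* 1 to 4 and at 37.3, 103, 111 and 26.6 CPM in *Srsf10-kd* 1 to 4. The livers *Srsf10-kd* 2 and 3 were high, and the other two lay within the *Ctrl* range. The log2 fold change was 1.32 (standard error 0.48, edgeR adjusted p = 0.175, two-sided exact permutation p = 0.143), and 1.07 without *Srsf10-kd* 2. It was named after its values were seen. At the other end, *Cyp2c23* had -0.24 (standard error 0.12, edgeR adjusted p = 0.244).

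*Cyp2c65* and *Cyp2s1*, known from gut and airway epithelium, passed with limma-voom alone and at trace levels. *Cyp2c65* was at 0.16, 0.15, 0.22 and 0.14 CPM in *Ctrl* 1 to 4 and at 0.37, 0.27, 0.21 and 0.32 CPM in *Srsf10-kd* 1 to 4, from 8 to 21 counts per liver. *Srsf10-kd* 3 lay below *Ctrl* 3, and the log2 fold change was 0.83 (standard error 0.28, edgeR adjusted p = 0.159, limma-voom adjusted p = 0.0202, 0.0202 to 0.352 over all alternatives). *Cyp2s1* was at 0.30, 0.20, 0.36 and 0.28 CPM in *Ctrl* and at 0.47, 0.38, 0.23 and 0.69 CPM in *Srsf10-kd*. Its groups overlapped through *Srsf10-kd* 3 (log2 fold change 0.67, standard error 0.34, edgeR adjusted p = 0.269, limma-voom adjusted p = 0.0444, 0.0444 to 0.520 over all alternatives), and its exons overlap *Gm26707* on the other strand.

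Much of the variation lay between single livers. The median SD of log2 CPM within groups was 0.33 over the 36 members with a mean of at least 1 CPM, and 0.22 over the 12142 such genes of the whole table. It ranged from 0.083 for *Cyp2e1* to 3.27 for *Cyp2b13*. *Srsf10-kd* 2 held the highest of the 8 values for 13 of the 36 members and *Srsf10-kd* 3 for 11, while *Ctrl* 4 held the lowest for 15 and *Srsf10-kd* 1 for 6. The median deviation of the members from their mean was -0.33 in *Ctrl* 4 and -0.23 in *Srsf10-kd* 1, and 0.25 and 0.27 in *Srsf10-kd* 2 and 3, while the median over all genes tested lay between -0.01 and 0.02 in each liver. Livers at both ends thus occurred within the *Srsf10-kd* group. The ratio of the highest to the lowest liver was at least 5 for 8 members, *Cyp2a4*, *Cyp2a5*, *Cyp2a22*, *Cyp2b9*, *Cyp2b10*, *Cyp2b13*, *Cyp2c70* and *Cyp3a11*, and for 7 of these the lowest liver was *Ctrl* 4 or *Srsf10-kd* 1. It was below 2 for 18 members, among them *Cyp2e1*, *Cyp2f2* and *Cyp1a2*.

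**Figure D4:**
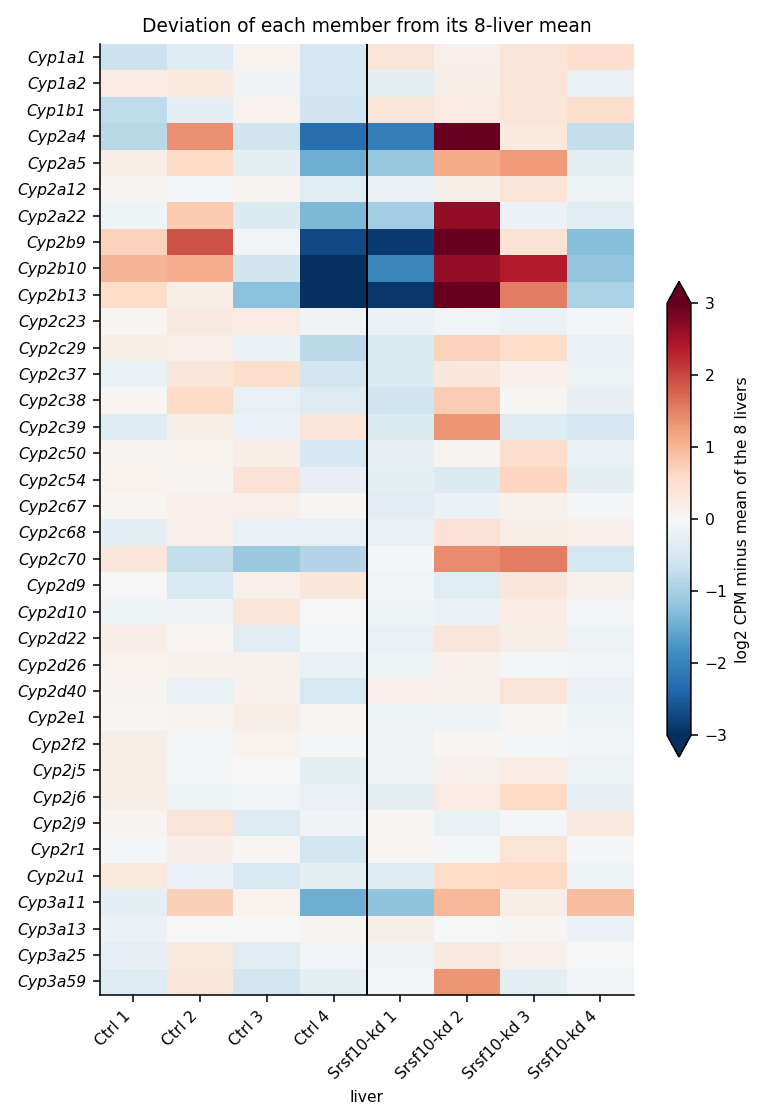
Difference of log2 CPM from the mean of the 8 livers for each of the 36 members, with livers as columns (*Ctrl* left of the line, *Srsf10-kd* right) and colours that saturate at 3 in either direction. *Ctrl* 4 and *Srsf10-kd* 1 are low and *Srsf10-kd* 2 is high across the *Cyp2a* and *Cyp2b* rows, and in the rows of *Cyp1a1* and *Cyp1b1* the 4 *Srsf10-kd* livers and *Ctrl* 3 lie above the mean and the other *Ctrl* livers below it.

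Of the members known to be higher in females, *Cyp2b13*, *Cyp2b9* and *Cyp2a4* were far higher in *Srsf10-kd* 2 than in any other of these male livers. *Cyp2b13* was at 1.53, 1.16, 0.42 and 0.035 CPM in *Ctrl* 1 to 4 and at 0.10, 111, 3.03 and 0.52 CPM in *Srsf10-kd* 1 to 4. The value in *Srsf10-kd* 2, from 5774 counts, was 36.6 times that of any other liver. *Cyp2b9* was at 38.8, 90.5, 22.7 and 3.67 CPM in *Ctrl* and at 3.28, 362, 32.5 and 9.98 CPM in *Srsf10-kd*, 4.0 times its next highest liver in *Srsf10-kd* 2. *Cyp2a4*, a testosterone 15α-hydroxylase, was at 0.90, 4.28, 1.07 and 0.32 CPM in *Ctrl* and at 0.37, 47.1, 2.04 and 1.0 CPM in *Srsf10-kd*, 11 times its next highest. *Cyp2a22*, which is on none of the lists by sex, was at 79.8 CPM in *Srsf10-kd* 2 and between 4.92 and 21.5 CPM elsewhere. In all 4 genes the other *Srsf10-kd* livers lay within or near the *Ctrl* range. These genes were singled out after their values were seen.

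The group fold changes of these genes are the values of 1 liver. *Cyp2b13* had a log2 fold change of 5.17 (standard error 1.83, edgeR adjusted p = 0.168) and 0.61 without *Srsf10-kd* 2. *Cyp2b9* went from 1.39 to -1.35, *Cyp2a4* from 2.93 to -0.55 and *Cyp2a22* from 1.17 to -0.39. With all 8 livers, limma-voom gave log2 fold changes of 0.29 for *Cyp2b13*, -1.45 for *Cyp2b9*, -0.11 for *Cyp2a4* and -0.09 for *Cyp2a22*. The remaining genes of the female list did not share that height. *Cyp2c40* was at 1.71 CPM and *Cyp2c69* at 0.60 CPM in *Srsf10-kd* 2, against up to 1.41 and 0.95 CPM elsewhere, and *Cyp3a16* and *Cyp3a44* had at most 0.15 CPM. *Cyp2a5*, the coumarin hydroxylase, was high in 2 livers (689 and 771 CPM in *Srsf10-kd* 2 and 3, and 115 to 474 CPM in the others), with a log2 fold change of 0.62 in edgeR and -0.32 in limma-voom. *Cyp2a4* and *Cyp2a5* share 22.1% and 22.3% of their 75-base stretches, mainly with each other. *Cyp2b13* shares 16.4%, mainly with *Gm45225* and *Cyp2b9*, and *Cyp2b9* shares 5.16%. The exact levels of these genes are thus uncertain. Exons of *Cyp2a4* also overlap *Gm42375* on the other strand, and how reads from that overlap were counted is unknown.

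Pancreas markers stood apart in the same liver. *Ctrb1*, *Pnlip*, *Cela2a* and *Cpa1*, genes of digestive enzymes, were at 80.9, 57.6, 36.8 and 34.1 CPM in *Srsf10-kd* 2 and at no more than 5.14 CPM in any other liver. Their summed level was 4.95 to 8.0 CPM in *Ctrl*, 209 CPM in *Srsf10-kd* 2 and 10.1 to 14.8 CPM in the other *Srsf10-kd* livers, and none was at 0. Whether pancreatic RNA has a part in the *Cyp2a* and *Cyp2b* values of that liver was not tested. Summed hepatocyte markers in *Srsf10-kd* 2 were 101489 CPM, within the range of the other livers.

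**Figure D5:**
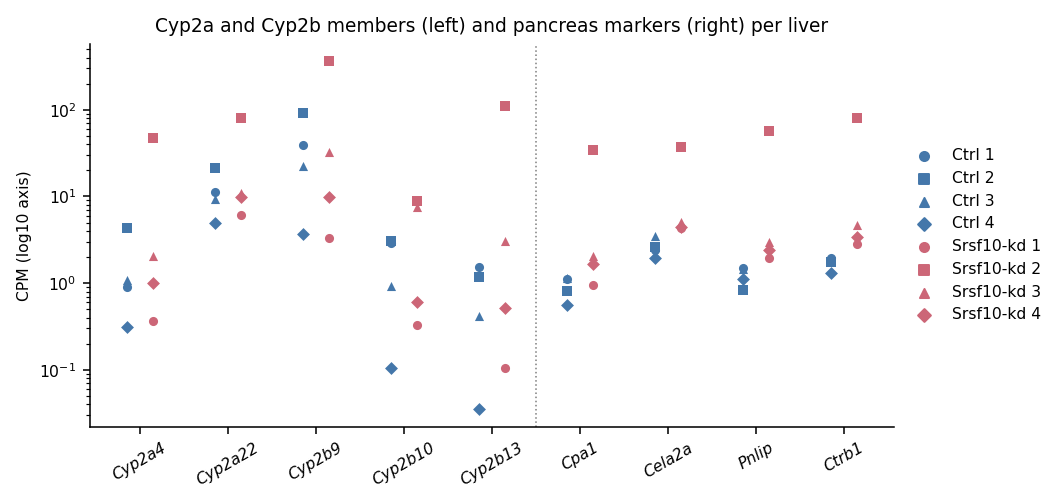
CPM on a log10 axis of 5 *Cyp2a* and *Cyp2b* members and of 4 pancreas markers in each liver, with colour for the group and shape for the liver number. The red square, *Srsf10-kd* 2, is the highest point of every column, by the widest margin for *Cyp2b13* among the members, and *Srsf10-kd* 3 is close to it for *Cyp2b10*.

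The partner and regulator genes of the pathway held 43 genes, of which 42 were tested, 21 with a positive and 21 with a negative log2 fold change. edgeR called 1 of the 42, where it called 0.071% of all genes, and DESeq2 called 2, where it called 5.75% of the genes it adjusted. With limma-voom 7 were called (16.7%), against 11.7% of all genes. The groups did not overlap for 1 gene with *Srsf10-kd* higher and for 4 with it lower, where 6.73% and 7.53% of all genes tested had such patterns. The gene called by all 3 tools was *Ppara*, the fatty acid receptor that also regulates some P450 genes, at 177, 208, 168 and 234 CPM in *Ctrl* 1 to 4 and at 88.4, 84.6, 77.8 and 82.3 CPM in *Srsf10-kd* 1 to 4. All 4 *Srsf10-kd* livers lay below the lowest *Ctrl* liver (log2 fold change -1.24, standard error 0.13, edgeR adjusted p = 0.0166, DESeq2 1.25e-15, limma-voom 0.00164). In edgeR *Ppara* missed the threshold without *Ctrl* 2 or without *Srsf10-kd* 1, 2 or 4, with an adjusted p of up to 0.106. Its log2 fold change lay between -1.31 and -1.15 when a liver was left out. *Cebpb*, a transcription factor of the acute phase, was at 154, 123.4, 89.1 and 112 CPM in *Ctrl* and at 183, 166, 246 and 184 CPM in *Srsf10-kd*. Its groups did not overlap (log2 fold change 0.71, standard error 0.18, edgeR adjusted p = 0.119, DESeq2 0.0156, limma-voom 0.0314, and 0.0156 to 0.322 over all alternatives).

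The receptors that induce the members had similar or slightly lower levels in *Srsf10-kd*. *Ahr* was at 54.9, 76.4, 44.6 and 55.5 CPM in *Ctrl* 1 to 4 and at 73.0, 69.3, 48.3 and 45.5 CPM in *Srsf10-kd* 1 to 4, with overlapping groups (log2 fold change 0.03, standard error 0.20). Its partner *Arnt* was at 32.5, 32.1, 26.6 and 30.4 CPM in *Ctrl* and at 24.0, 26.4, 24.3 and 24.0 CPM in *Srsf10-kd*. No *Srsf10-kd* liver reached the *Ctrl* range (log2 fold change -0.30, standard error 0.10, edgeR adjusted p = 0.154, limma-voom 0.0169, and 0.0169 to 0.353 over all alternatives). *Nr1i2* (PXR) was at 112, 130.0, 121 and 113 CPM in *Ctrl* and at 98.9, 99.1, 99.8 and 106 CPM in *Srsf10-kd*, also without overlap (log2 fold change -0.24, standard error 0.10, edgeR adjusted p = 0.199). *Nr1i3* (CAR) was at 368, 436, 265 and 369 CPM in *Ctrl* and at 294, 406, 260.4 and 304 CPM in *Srsf10-kd*, with overlap (log2 fold change -0.19, standard error 0.18, edgeR adjusted p = 0.533). *Rxra*, the common partner of both receptors, had a log2 fold change of -0.48 (standard error 0.20, edgeR adjusted p = 0.211, limma-voom 0.0454, and 0.0454 to 0.402 over all alternatives), from 313 to 552 CPM in *Ctrl* and from 240.2 to 376 CPM in *Srsf10-kd*. Of the 6 AhR pathway genes tested 5 had positive log2 fold changes. Those of *Ahrr*, *Tiparp* and *Nqo1* were 0.34, 0.28 and 0.37, with overlapping groups (edgeR adjusted p = 0.358, 0.297 and 0.316). Of the 12 genes in the CAR and PXR list 6 were positive and 6 negative. Among them *Ugt1a1* was lower in every *Srsf10-kd* liver (32.2 to 208 CPM) than in any *Ctrl* liver (217 to 279 CPM, log2 fold change -0.78, edgeR adjusted p = 0.292).

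*Hnf4a*, a master factor of hepatocyte genes, was at 850.4, 829, 597 and 919 CPM in *Ctrl* 1 to 4 and at 653, 570.4, 444 and 588 CPM in *Srsf10-kd* 1 to 4. *Srsf10-kd* 1 overlapped *Ctrl* 3 (log2 fold change -0.50, standard error 0.17, edgeR adjusted p = 0.155, limma-voom 0.0274, and 0.0274 to 0.340 over all alternatives). The glucocorticoid receptor gene *Nr3c1* was also called by limma-voom and not by edgeR or DESeq2 (log2 fold change -0.27, standard error 0.12, edgeR adjusted p = 0.228, limma-voom 0.0385, and 0.0385 to 0.913 over all alternatives). With the length trend removed *Hnf4a* had a log2 fold change of -0.39 and *Nr3c1* of -0.05. *Por*, the electron donor of every member, was at 492, 628, 477 and 765 CPM in *Ctrl* and at 466, 453, 604 and 628 CPM in *Srsf10-kd*, and its groups overlapped (log2 fold change -0.14, standard error 0.18, edgeR adjusted p = 0.664). In each of the electron transfer and heme list (8 genes) and the growth hormone and sex list (5 genes), 0 genes were called by the 3 tools. Of the latter list, *Cux2* was highest in *Srsf10-kd* 2, at 0.88 CPM, against up to 0.42 CPM elsewhere, from 4 to 46 counts per liver. *Bcl6* lay between 5.63 and 57.5 CPM in the 8 livers (log2 fold change -1.23, standard error 0.55, edgeR adjusted p = 0.227), at 23.4 CPM in *Srsf10-kd* 2. Both were named after their values were seen, and a link to the *Cyp2a* and *Cyp2b* values was not tested.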

How the data were processed

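The authors made directional libraries from poly(A)-selected liver RNA, read them as paired ends, aligned with STAR (2.7.7a in the submitters' processing notes) to GRCm38 and deposited raw read counts per gene, without normalization. The annotation release and the strand column are not given in the sources used here. Counts were analysed in R 4.3.3 with edgeR 4.0.16 on condition alone, and log2 CPM used a prior count of 2. DESeq2 1.42.0 (the tool of the study) and limma 3.58.1 (voom with weights) were alternatives, as were other scalings, filters, a replicate block, removal of each library's lowess trend (span 0.5) on transcript length, and each liver left out. Exact permutation tests ran over 70 assignments of 8 livers. The scripts were tested on simulated data. Counts of any 2 libraries differed by a chi-square of at least 46.6 per degree of freedom, so none was a duplicate.

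Positions, symbols and exon lengths came from GENCODE M21. The members, the lists of partners, regulators and markers, and the tests were chosen with earlier results of these data known. Full values are given for *Srsf10*, the 6 highest members per kb, members with a mean CPM of at least 1 whose groups did not overlap, members called by any tool, *Cyp1a1*, *Cyp1a2*, *Cyp2b10*, *Cyp3a11* and *Cyp2e1*, and, of the partners, *Por*, *Ahr*, *Nr1i2*, *Nr1i3*, *Hnf4a* and those called. Not analysed here were 12 rows of these families outside the naming rule, such as *Cyp3a41a* and pseudogenes. The values of 1 called gene of the regulator list are not reported here.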

Additional observations from a re-analysis of the deposited data

Results flagged for a closer look

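Among 96 groups of 4 livers checked (36 members, 11 partner and regulator genes and the summed level of the members), 11 had a liver farther from the others than Dixon's 95% critical value for 4 values allows on the log2 scale, and chance alone flags about 1 in 20. For *Srsf10-kd* 2, *Cyp2c39* at 8.149 CPM and *Cyp3a59* at 39.82 CPM lay above the rest of their group, as did *Arnt* at 26.45 CPM. In *Srsf10-kd* 3, *Cyp2c54* at 338.8 CPM and *Cyp2r1* at 12.66 CPM lay above the rest, and *Rxra* at 240.2 CPM lay below. *Nr1i2* at 106.2 CPM in *Srsf10-kd* 4 was above the others of its group. In *Ctrl* 4, *Cyp2c50* at 464.8 CPM and *Cyp2d26* at 841.5 CPM lay below the rest. *Cyp2c68* at 125.7 CPM in *Ctrl* 2 was above the other *Ctrl* livers, and *Rxra* at 313.2 CPM in *Ctrl* 3 was below them. *Cyp2b13* was not among these, because its other *Srsf10-kd* livers also spread widely on the log2 scale.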

How the results depend on the processing

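DESeq2 called 2 members and 2 partner or regulator genes, and limma-voom with weights called 4 and 7, where edgeR called 0 and 1. With limma-voom 15 members were higher in *Srsf10-kd* and the median over members was -0.078. With it log2 fold changes changed sign for 21 of the 44 members (19 from positive to negative), among them *Cyp1a2* (-0.26), *Cyp2b10* (-0.89), *Cyp2d9* (0.11) and *Cyp2j5* (-0.080), and for *Ahr* (-0.092). With the length trend removed 5 members changed sign, among them *Cyp1a2* (-0.11) and *Cyp2j5* (-0.044). The cause was not tested. Over the fits that each left out 1 liver, 0 to 2 members were called (2 without *Ctrl* 3, 0 in the others) and 0 to 1 partner or regulator genes (0 without *Ctrl* 2 or without *Srsf10-kd* 1, 2 or 4), and the range of log2 fold changes was -0.12 to 0.13 for *Cyp1a2*, -0.16 to 0.054 for *Cyp2d10*, -0.15 to 0.11 for *Cyp2d9*, -0.041 to 0.11 for *Cyp2j5*, -0.090 to 0.19 for *Ahr* and -0.23 to 0.013 for *Por*. The number of members higher in *Srsf10-kd* lay between 25 and 35 and their median between 0.055 and 0.28 in those fits. The count of members with a mean CPM of at least 1 whose groups did not overlap, an alternative added after the data were seen, was 2 to 5 when a liver was left out, 4 without *Ctrl* 4 and 5 without *Srsf10-kd* 3. Fewer livers per group make such a pattern easier to meet. The share of all genes with such a pattern is not given here for these fits, so these counts cannot be set against a background.

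The labels do not say that equal replicate numbers share a litter, cage or day. Deviations of same-numbered livers correlated at -0.18, 0.21, 0.27 and 0.22 for numbers 1 to 4. These were not set beside correlations of livers with different numbers, so whether the livers were paired is unknown. With the replicate block 0 members and 1 partner or regulator gene were called and 32 members were higher, with a median of 0.16. Other scalings and filters also called 0 members and 1 partner or regulator gene. Members under 1 CPM rest on few counts, so differences in them were poorly resolved at this depth.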
